A study of Homo sapiens with 12 samples.

Results

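The introns described here are the 92 features that carry the same chromosome, start, end and strand in both of the authors' deposited intron tables, one for each form of HCT116, a human colon cancer cell line. The MTAP-null table holds 1549 features and the MTAP-WT one holds 258, so the shared set is 92 of 1715 features in all. The comparison is between 3 libraries of the engineered MTAP-null form and 3 of the MTAP-WT form, each given only the solvent DMSO. In 6 further libraries, 3 of each form, the cells received AGI24512, an inhibitor of MAT2A, and these serve below as a separate set for the same contrast. The labels give no dose or duration, do not say how MTAP was removed or whether the null form is 1 clone, and give no source culture for the 3 libraries of a group. The p-values below are thus set against a spread between libraries that may be technical.

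MTAP is the phosphorylase of the methionine salvage pathway: it splits methylthioadenosine, a by-product of polyamine synthesis, and its loss lets that compound build up. Methylthioadenosine competes with S-adenosylmethionine at PRMT5, an arginine methyltransferase whose substrates include core proteins of the spliceosome. Detained introns are introns left in polyadenylated transcripts that stay in the nucleus, and many of them respond to changes in the splicing machinery or in signalling.

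The authors named each feature after an entry in a published catalogue of detained introns. Of the 92, which carry 81 gene symbols, 56 matched an annotated intron of GENCODE 29 (GRCh38) to the base, and 36 did not. A transcript name was attached to 14 of them, so these can lie in an exon, and 4 carry the symbols of 2 genes. By position, 24 lie wholly inside an exon of some annotated transcript on the same strand. Among these are the features of GTF2I, SNHG5, RPLP0, RPS14, RPL15, ATG3, LGALS1 and IAH1 described below, so their reads can also come from such a transcript. A further property bears on the counting: 24 lie within the span of an annotated gene on the opposite strand, and the use of strand in the counting is not given in the sources used here. Widths ran from 66 to 26729 bases, with a median of 2401.5. They are called introns below, with exceptions named.

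The sequences below belong to introns on which the results turn and are taken from GENCODE 29 transcripts. The first set shows what is joined when the intron is removed, with the last 15 exon bases before it in lower case and the first 15 after it in capitals. It covers introns of EML2 (chr19:45615890-45616460, minus strand), TMEM181 (chr6:158608751-158623549, plus), SNX24 (chr5:123002005-123007681, plus), POU6F1 (chr12:51199869-51204172, minus) and MAT2A (chr2:85543035-85543669, plus), all between coding exons.
EML2: ctgggcaagtgctcgGGCCATTCCAGTTTT
TMEM181: aggaatatggcaaacAGTTAACGAATTACA
SNX24: tgcctgcagccagcgATTTTCCAAATGTGG
POU6F1: ctgcagaggcaactgTGAAGTCACCCCCGG
MAT2A: tggggtcattgtcagGGATCTGGATCTGAA

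The second set shows short features whole. For LGALS1 (chr22:37678393-37678482, plus strand) the intron is in capitals between 10 exon bases on each side. For CD44 (chr11:35196746-35196874, plus) the feature is a coding exon, shown in capitals between 10 bases of its spliced neighbours. For SNHG5 (chr6:85677493-85677790, minus) the intron is in lower case and the small nucleolar RNA gene inside it, SNORD50B, is in capitals.
LGALS1: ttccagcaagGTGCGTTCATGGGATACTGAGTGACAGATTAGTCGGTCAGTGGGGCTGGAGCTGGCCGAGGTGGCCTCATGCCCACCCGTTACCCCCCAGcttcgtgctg
CD44: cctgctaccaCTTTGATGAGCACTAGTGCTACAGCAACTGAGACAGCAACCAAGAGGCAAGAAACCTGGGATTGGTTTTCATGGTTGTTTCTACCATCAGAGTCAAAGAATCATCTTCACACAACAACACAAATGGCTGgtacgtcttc
SNHG5: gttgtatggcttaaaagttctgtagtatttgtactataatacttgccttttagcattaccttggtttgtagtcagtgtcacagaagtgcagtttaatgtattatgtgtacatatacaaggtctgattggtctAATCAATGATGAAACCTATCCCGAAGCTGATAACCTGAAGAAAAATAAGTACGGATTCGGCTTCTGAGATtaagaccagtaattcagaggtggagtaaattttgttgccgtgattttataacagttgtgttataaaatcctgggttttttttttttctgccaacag

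Values below are scaled counts: the deposited read counts divided by the authors' size factors, which were solved from the deposited base means. The factors ran from 0.859 to 1.14 in MTAP-null and from 0.960 to 1.09 in MTAP-WT DMSO libraries. They were set separately in each table, so they relate libraries of 1 form to each other, and the offset between the forms is not known. A shift common to all 92 introns cannot be told apart from a difference in depth. Each fit of MTAP-null against MTAP-WT within 1 treatment was therefore repeated with size factors taken from the 92 introns themselves. The repeat asks whether an intron differs from the typical shared intron. A count also mixes the amount of a gene's RNA with the share of it that keeps the intron, and these cannot be told apart here. All 92 passed the authors' test for AGI24512 against DMSO in both forms, a choice that used these same DMSO libraries but not the difference between the forms.

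Raw reads over the 92 introns summed to between 15781 and 21237 per MTAP-null library and between 18230 and 21713 per MTAP-WT library. Over all listed features, replicates differed from each other by more than sampling noise, and MTAP-WT DMSO library 1 stood furthest from the other 2 of its group, at 3.78 and 3.58 times the chi-square that sampling alone gives, against 1.46 between those 2. With AGI24512, library 1 again stood furthest apart, at 4.10 and 2.80 against 1.53 in MTAP-WT, and at 3.40 and 5.13 against 1.57 in MTAP-null. In the MTAP-null DMSO group it was at 1.81 and 1.43, against 1.47 between the other libraries. The gene that defines the forms could not be compared. MTAP has 1 listed feature (chromosome 9, 21809001 to 21813765), in the MTAP-null table only, with raw counts of 100, 99 and 87 in the MTAP-null DMSO libraries, so reads from that stretch of the gene were counted in cells labelled MTAP null. Which part of MTAP was removed is not stated in the labels.

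Most shared introns were not called different between the forms in DMSO. With the authors' size factors, those that were called were mostly lower in MTAP-null, and with size factors from the 92 introns as many were higher as lower. RUNX1, EML2 and TMEM181 had the largest deficits, with MTAP-null counts about 0.272 to 0.357 of the MTAP-WT counts. CD44, GTF2I and SNHG5 had the largest excesses, between 1.68 and 2.36 fold. With the authors' size factors, edgeR's quasi-likelihood test called 24 of 92 introns (26.1%) at an adjusted p under 0.05, with 18 lower (19.6%) and 6 higher (6.52%) in MTAP-null, and 34 had an unadjusted p under 0.05. The median log2 difference over the 92 was -0.08, with a range of -1.85 to 1.24. With size factors from the 92 introns, the median was 0.00 and edgeR called 34 (37%), with 17 higher and 17 lower (18.5% each). TMM scaling over the same introns gave a median of 0.06, with 20 higher and 17 lower.

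Over the scalings tried, the lower calls depended little on the choice and the higher calls depended on it strongly. Called under both scalings were 17 introns as lower and 6 as higher, with 0 called in opposite directions. All 24 called with the authors' size factors kept their sign under each of the 5 scalings tried. These scalings shift all introns nearly alike, and the median log2 difference moved only between -0.08 and 0.06. The smallest called difference was 0.236, for RPS14, so a changed sign or an opposite call was hardly possible. The unknown offset between the tables could be larger than these shifts. Scaling on the 92 introns added 11 higher calls and took away 1 lower call, RIN3, an exchange factor for small GTPases of the Rab5 family. Raw counts gave 3 higher and 16 lower, and size factors from the total count of the 92 introns gave 17 and 17.

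**Figure D1:**
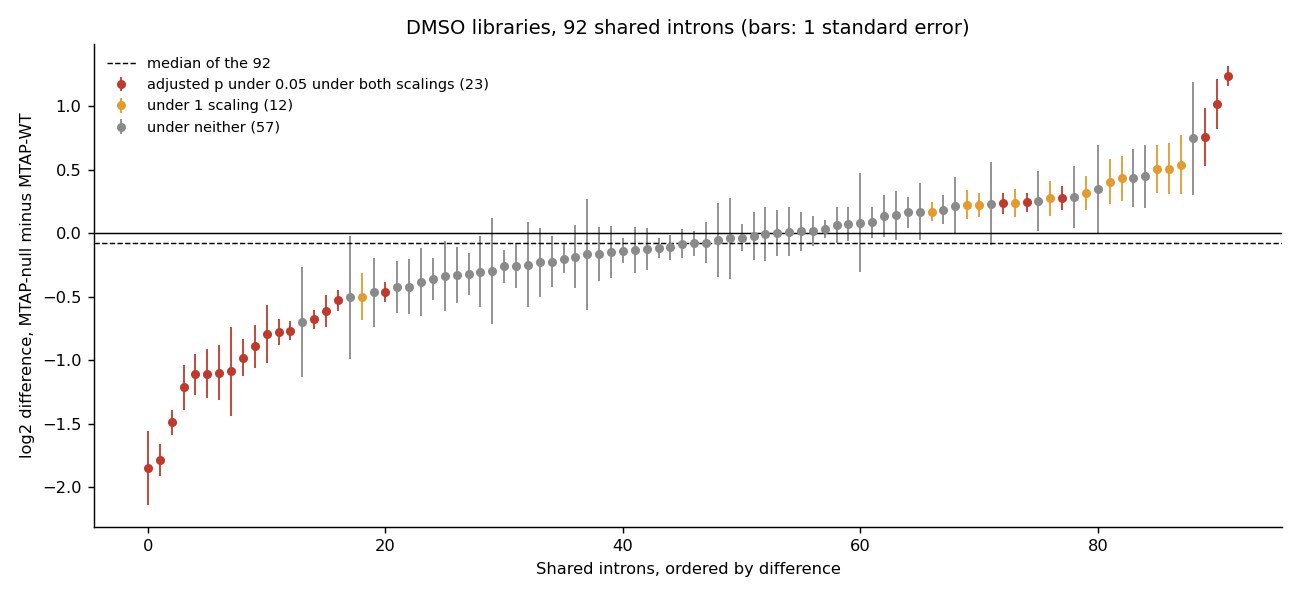
Log2 difference, MTAP-null minus MTAP-WT, for each of the 92 shared introns in DMSO libraries, ordered by size (x axis: rank; y axis: log2 of scaled counts; bars: 1 standard error). The 23 introns called under both scalings sit mostly at the lower end, 17 below 0 and 6 above, and the dashed line marks the median of -0.08.

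RUNX1, a transcription factor of blood cell development, had the largest difference. Its intron (chromosome 21, 34821697 to 34829851, minus strand) had scaled counts of 13.98, 19.4 and 9.31 in MTAP-null libraries, against 53.2, 64.4 and 39.6 in MTAP-WT libraries. All 3 MTAP-null values lay below all 3 MTAP-WT values, though the counts are low in both forms. The log2 difference was -1.85 with a standard error of 0.29 (edgeR adjusted p = 3.23e-05), and -1.77 relative to the other shared introns.

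EML2, a microtubule-associated protein, had the most uniform deficit. The intron whose exon junction is given above had 72.5, 75.8 and 68.7 scaled counts in MTAP-null libraries, against 243, 259.6 and 249 in MTAP-WT libraries. The groups were far apart, and within each group the libraries lay close together. The log2 difference was -1.79 with a standard error of 0.13 (edgeR adjusted p = 2.77e-10), and leaving out any 1 library moved it only between -1.82 and -1.76.

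TMEM181, a multipass membrane protein, carried far more reads. Its long intron had 239, 236 and 269 scaled counts in MTAP-null libraries, against 606, 779 and 702 in MTAP-WT libraries, again with no overlap. The log2 difference was -1.49 with a standard error of 0.10 (edgeR adjusted p = 1.78e-10). The intron holds the microRNA gene MIR7161 and lies within the span of TATDN2P2 on the other strand, so its reads cannot be assigned to 1 strand here.

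Introns of 5 genes followed with between 0.430 and 0.465 of the MTAP-WT count. ATG3, the enzyme that couples LC3 to lipid in autophagy, had 60.3, 38.9 and 53.5 scaled counts in MTAP-null libraries, against 123, 120.5 and 111 in MTAP-WT libraries, in a feature on chromosome 3 (112532781 to 112534256, minus strand) that also carries a transcript name. SNX24, a sorting nexin, had 64.7, 79.7 and 62.9 in MTAP-null, against 176, 140.2 and 131 in MTAP-WT. ATP11A, a phospholipid flippase, had 41.9, 42.7 and 48.9 in MTAP-null, against 75.2, 99.7 and 112 in MTAP-WT, in a feature on chromosome 13 (112880650 to 112881812, plus strand). In these 3 genes no MTAP-null library reached the lowest MTAP-WT library. POU6F1, a POU-domain transcription factor, had 35.8, 34.0 and 27.9 in MTAP-null, against 82.6, 70.6 and 57.3 in MTAP-WT. USP53, a member of the ubiquitin-specific protease family found at tight junctions, had 9.61, 17.5 and 6.98 in MTAP-null, against 19.3, 22.8 and 32.3 in MTAP-WT (chromosome 4, 119239904 to 119245336, plus strand). USP53 had the fewest reads of the introns named here: its highest MTAP-null value lay just under its lowest MTAP-WT value.

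The log2 differences of these 5 were -1.21 for ATG3, -1.11 for SNX24, -1.10 for ATP11A, -1.10 for POU6F1 and -1.09 for USP53. The first 4 had edgeR adjusted p-values from 1.37e-05 to 0.000311 and stayed called with any 1 library left out. USP53 had an adjusted p of 0.0262 in edgeR and was no longer called without MTAP-WT library 3 (adjusted p = 0.15), MTAP-null library 1 (0.0954) or MTAP-null library 3 (0.0669).

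A further 4 introns were lower by less. ARHGAP29, a GTPase-activating protein, had 108, 102 and 90.8 scaled counts in MTAP-null libraries, against 167, 236 and 195 in MTAP-WT libraries (chromosome 1, 94154649 to 94168906, minus strand). TMCO3, a predicted membrane transporter, had 88.3, 119 and 118 in MTAP-null, against 148, 212 and 241 in MTAP-WT, in the more 3' of its 2 shared introns (chromosome 13, 113520734 to 113534044, plus strand). Both show a wide spread among MTAP-WT libraries, with library 1 lowest. PAM, which amidates the ends of secreted peptides, had 52.4, 54.4 and 44.2 in MTAP-null, against 55.1, 115 and 94.8 in MTAP-WT (chromosome 5, 102974437 to 102987517, plus strand). TMCC1, a membrane protein of the endoplasmic reticulum, had 263, 236 and 243 in MTAP-null, against 485, 388 and 399 in MTAP-WT (chromosome 3, 129839061 to 129857249, minus strand). Here MTAP-WT library 1 was the highest, and in PAM it lay within 1 count of the highest MTAP-null library.

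The log2 differences were -0.98 for ARHGAP29, -0.89 for TMCO3, -0.79 for PAM and -0.78 for TMCC1, with edgeR adjusted p-values of 1.68e-05, 0.000238, 0.0128 and 5.01e-06. PAM was not called without MTAP-WT library 2 (edgeR adjusted p = 0.0798) or MTAP-WT library 3 (0.0573).

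The remaining lower calls included introns with many reads. LGALS1, which encodes galectin-1, a secreted lectin that binds beta-galactosides, was the most abundant of them. Its 90-base intron had 669, 721 and 762 scaled counts in MTAP-null libraries, against 1195, 1145 and 1098 in MTAP-WT libraries, with no overlap. The log2 difference was -0.68 with a standard error of 0.08 (edgeR adjusted p = 4.72e-07). Also lower under both scalings were ASPH, an aspartate hydroxylase of the endoplasmic reticulum, at -0.77, and ARMCX5-GPRASP2, a readthrough of neighbouring genes on chromosome X, at -0.61. IAH1, an esterase-like protein, was at -0.53 and PINK1, the kinase that marks damaged mitochondria for removal, at -0.46. These 4 are too small for the rule on named introns and are given to complete the list. IAH1, ARMCX5-GPRASP2 and PINK1 each lie within the span of a gene on the opposite strand. RIN3 was lower only with the authors' size factors, at -0.50 (edgeR adjusted p = 0.0496), and lost its call without MTAP-WT library 3 (adjusted p = 0.258) or any 1 MTAP-null library (0.0823 to 0.11).

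**Figure D2:**
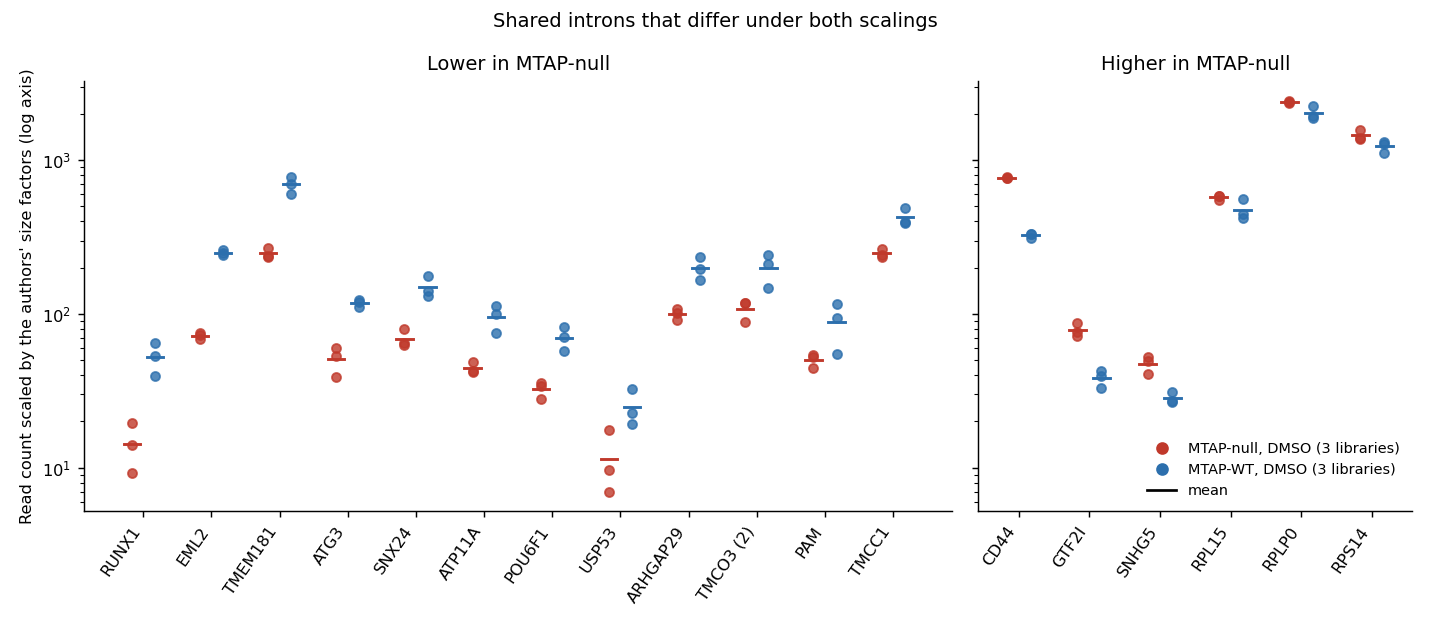
Scaled read counts (log axis) in each of 3 MTAP-null (red) and 3 MTAP-WT (blue) DMSO libraries, with bars at the group means, for the 12 named introns called lower and the 6 called higher under both scalings. In every lower intron the MTAP-null points lie below the MTAP-WT points. Of the higher ones, RPL15 alone has overlapping points.

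On the other side, CD44 stood apart. CD44 is the receptor for hyaluronan and is spliced in many forms, and the feature is not an intron: it matches to the base a 129-base coding exon that is one of the alternatively included exons of its extracellular part. It had 761, 761 and 773 scaled counts in MTAP-null libraries, against 311, 331 and 330.1 in MTAP-WT libraries. The groups did not overlap, and their means were 765 ± 6.94 and 324 ± 11.3 (SD, n = 3 each). The log2 difference was 1.24 with a standard error of 0.08 (edgeR adjusted p = 1.59e-10), and 1.33 relative to the other shared introns.

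GTF2I, the transcription factor TFII-I, had 76.0, 71.9 and 87.3 scaled counts in MTAP-null libraries, against 39.5, 33.2 and 42.7 in MTAP-WT libraries, in its last intron (chromosome 7, 74758856 to 74759547, plus strand). No MTAP-WT library reached the MTAP-null range, and the log2 difference was 1.02 (edgeR adjusted p = 0.000251). The feature also carries a transcript name. GTF2I has near-identical pseudogene copies, so how its reads were divided is uncertain. SNHG5, the host of the small nucleolar RNA shown above, had 52.4, 49.5 and 40.7 in MTAP-null, against 26.6, 31.2 and 27.1 in MTAP-WT. Its log2 difference was 0.76 (edgeR adjusted p = 0.0157), and with the authors' size factors it lost the call without MTAP-WT library 3 (adjusted p = 0.0598) or MTAP-null library 1 (0.0823).

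The other 3 higher calls were all in ribosomal protein genes and were small. RPLP0, a stalk protein of the large subunit, had 2374, 2354 and 2441 scaled counts in MTAP-null libraries, against 2238, 1939.8 and 1877 in MTAP-WT libraries, the most reads of any shared intron (chromosome 12, 120200151 to 120200729, minus strand). RPS14, of the small subunit, had 1401, 1369 and 1573 in MTAP-null, against 1269, 1306 and 1109 in MTAP-WT (chromosome 5, 150447474 to 150447584, minus strand). RPL15, of the large subunit, had 585, 553 and 589 in MTAP-null, against 555, 444 and 421 in MTAP-WT, in a 66-base, transcript-named feature on chromosome 3 (23917174 to 23917239, plus strand) that lies within the span of NKIRAS1 on the opposite strand. RPLP0 and RPS14 did not overlap between the forms, whereas the highest MTAP-WT library for RPL15 lay above the lowest MTAP-null library. The log2 differences were 0.24, 0.24 and 0.28, with edgeR adjusted p-values of 0.0157, 0.0322 and 0.0361. None of these calls was firm. RPLP0 lost it without MTAP-WT library 2 (edgeR adjusted p = 0.0968) or MTAP-null library 1 (0.0679), RPS14 without MTAP-WT library 3 (0.12), MTAP-null library 1 (0.0679) or MTAP-null library 3 (0.197). RPL15 lost it without any 1 library other than MTAP-WT library 1, at adjusted p-values of 0.0685 to 0.157.

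Read by list, the shared introns fall in few of the lists, which do not hold every gene of a pathway. Of 13 gene lists, 5 had a shared intron, 10 introns in all. Of the translation list (ribosomal proteins and aminoacyl-tRNA synthetases), all 3 shared introns were called higher, with a median log2 difference of 0.24. Hosts of small nucleolar RNAs had 1 of 2 called higher, and the other, a feature carrying the symbols of RCC1 and SNHG3, had 453, 473 and 435 scaled counts in MTAP-null libraries, against 430.4, 564 and 479 in MTAP-WT libraries. RNA modification had 0 of 2 called, METTL6 at a log2 difference of 0.13 and TRMT13 at -0.18, both tRNA methyltransferases. The single splicing regulator was LUC7L2, a protein associated with the U1 particle, in a feature that it shares with a readthrough gene: its log2 difference was 0.04, with a 95% interval of -0.11 to 0.18. No shared intron fell in the lists of arginine methyltransferases, splicing kinases, core spliceosome, RNA decay, DNA repair, cell division, p53 or chromatin genes. Absence from a list does not mean that a pathway has no shared intron. ACTL6A, MBD1, TOP1 and EIF4E, for example, have shared introns but are in none of the 13 lists, and they were not called.

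MAT2A, which makes S-adenosylmethionine and is the target of AGI24512, has its last intron among the 92. That intron had 118, 139.9 and 122 scaled counts in MTAP-null libraries, against 67.0, 123 and 93.7 in MTAP-WT libraries. The groups overlapped slightly, since MTAP-WT library 2 lay above the lowest MTAP-null library. With the authors' size factors the log2 difference was 0.43, with a 95% interval of 0.08 to 0.78, and was not called (edgeR adjusted p = 0.0842). Without MTAP-WT library 1 it was 0.23 (edgeR adjusted p = 0.301), and without MTAP-WT library 2 it was called at 0.66 (edgeR adjusted p = 0.00219). With size factors from the 92 introns it was called at 0.52 (edgeR adjusted p = 0.0226), a call lost without MTAP-WT library 1 (adjusted p = 0.128) or MTAP-null library 2 (0.0597). The other member of the methionine, folate and polyamine list, MTHFD2L, a mitochondrial enzyme of folate metabolism, was not called at 0.22 (edgeR adjusted p = 0.517), though with AGI24512 it was called higher in MTAP-null at 0.93 (edgeR adjusted p = 0.000173). FOCAD, whose intron lies 1.12 Mb from MTAP on chromosome 9 and was chosen for that position, had a log2 difference of -0.14 and was not called (edgeR adjusted p = 0.583).

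The level of the other abundant features gives the precision of the comparison. The LUC7L2 feature had 1084 ± 14.8 scaled counts in MTAP-null libraries and 1058 ± 54.7 in MTAP-WT libraries, and the DMKN intron, in the gene of the secreted protein dermokine, had 889 ± 40.2 and 964 ± 71.4 (SD, n = 3 each). Neither was called. Of the 27 introns with a mean under 50 scaled counts, 3 were called, and their median standard error was 0.28 on the log2 scale, against 0.14 for the rest. The 24 low introns that were not called had differences from -0.70 to 0.75, so differences of that size could go undetected at this depth. Per kilobase of feature, mean scaled counts ran from 0.528 to 13039 in MTAP-null and from 0.326 to 12733 in MTAP-WT, with medians of 31.5 and 35.1.

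By length, all 6 higher calls with the authors' size factors were in features under 1 kb, of which 32 were tested, with 3 lower. All 6 are also annotated exon sequence: CD44 is an exon, and GTF2I, SNHG5, RPLP0, RPS14 and RPL15 lie inside one. Of the lower calls, only ATG3, LGALS1, IAH1 and RIN3 lie inside an annotated exon. Length and exon overlap were not separated, so the pattern cannot be read as one of short introns. From 1 to 10 kb there were 0 higher and 9 lower calls among 43 introns, and over 10 kb 0 higher and 6 lower among 17. The median log2 difference was -0.01 under 1 kb, -0.08 from 1 to 10 kb and -0.14 over 10 kb. The 3 lower calls under 1 kb were EML2, LGALS1 and IAH1. With size factors from the 92 introns the higher and lower calls were 11 and 3 under 1 kb, 6 and 8 from 1 to 10 kb, and 0 and 6 over 10 kb, so the absence of higher calls from 1 to 10 kb holds only for the authors' size factors. Whether calls are spread unevenly over length was not tested. The part of RNA quality or of read depth along the gene in this pattern was not tested.

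**Figure D3:**
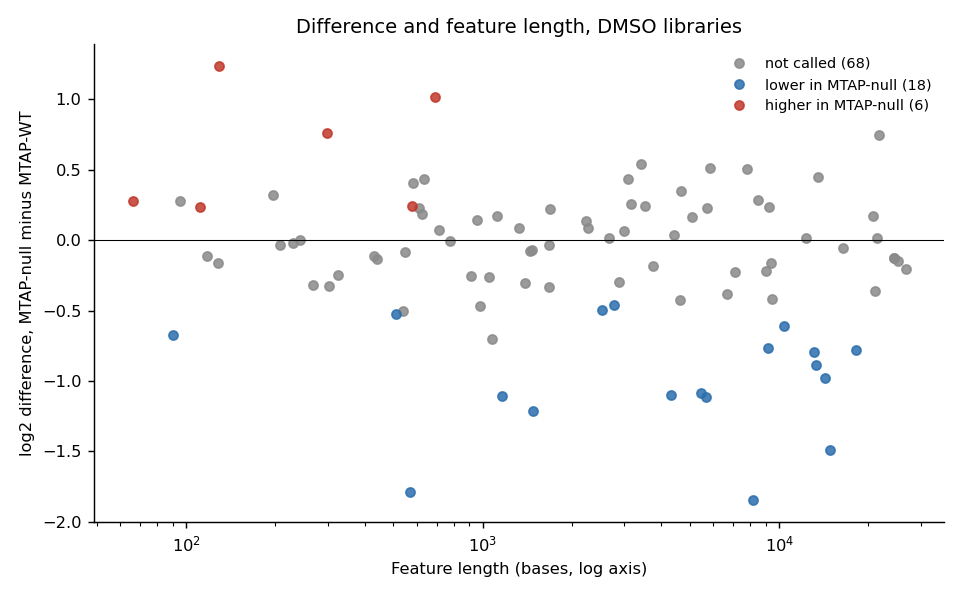
Log2 difference, MTAP-null minus MTAP-WT, with the authors' size factors in DMSO libraries against the length of each of the 92 features (x axis: bases, log scale). The 6 higher calls (red) all lie under 1 kb, and all 6 are annotated exon sequence. The 18 lower calls (blue) span from the 90-base LGALS1 intron to introns over 10 kb.

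A comparison of features within 1 gene needs no scaling between the tables. It was possible for 11 neighbouring pairs in 8 genes, using the log2 ratio, in each library, of the count of the feature with the higher start coordinate to that of its neighbour. With 3 libraries against 3, the smallest p an exact permutation test can give is 0.1. GALNT18, a glycosyltransferase that starts O-linked sugar chains, had ratios of -0.74, -0.78 and -0.59 in MTAP-null libraries, against -1.87, -1.24 and -1.70 in MTAP-WT libraries, without overlap and a difference of 0.90. SNED1, an extracellular matrix protein, showed a difference of -0.63, COA1, an assembly factor of cytochrome oxidase, one of 0.45, and the third over the second feature of TM9SF1, a multispanning membrane protein, one of 0.31. In each of these 4 pairs the forms did not overlap (two-sided exact permutation p = 0.1, and 0.275 after adjustment over the 11 pairs), which the design cannot take below the threshold. Without MTAP-WT library 2 the difference was -0.32 for SNED1 and 0.23 for COA1. The features of SNED1 and COA1, and the first of GALNT18, lie within the span of a gene on the opposite strand. Those of GALNT18 adjoin, at 11341005 to 11362015 and 11362016 to 11365443 on chromosome 11. Neither matches an annotated intron to the base, and the second carries a transcript name, so they may not be separate introns. The introns of SLC38A10, SBF2, PAX8-AS1 and TMCO3 overlapped between the forms in all of their pairs, as did the second over the first of TM9SF1, with differences from -0.49 to 0.20.

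**Figure D4:**
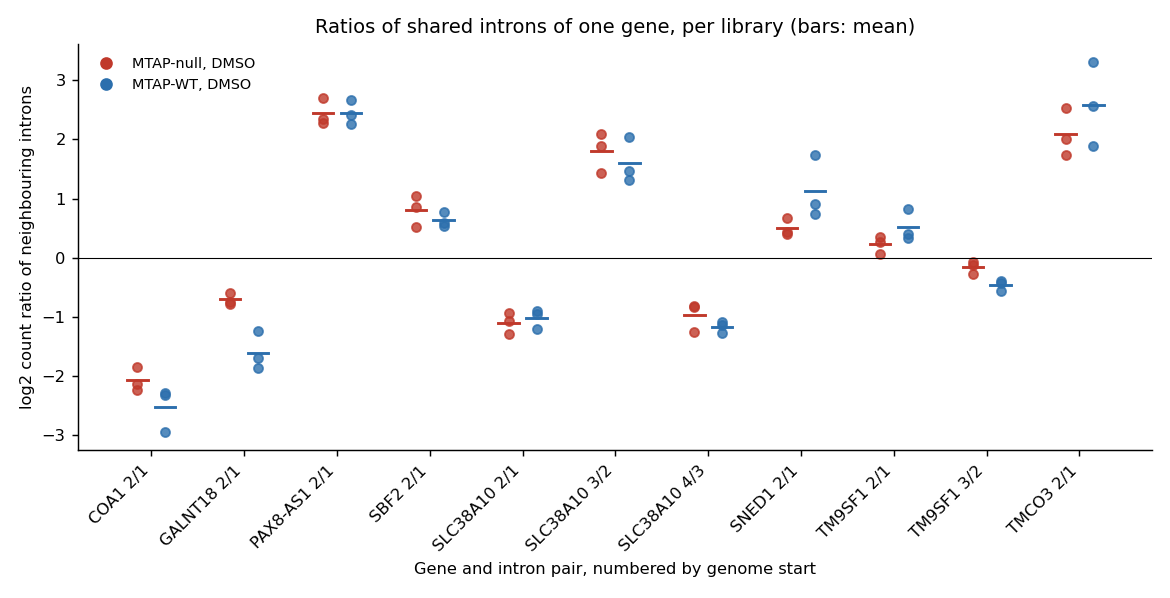
Log2 ratio of the read counts of 2 neighbouring shared features of 1 gene in each DMSO library, MTAP-null in red and MTAP-WT in blue, with bars at the means. In GALNT18 and COA1 the MTAP-null ratios lie above the MTAP-WT ratios and in SNED1 below them, while PAX8-AS1 has nearly the same mean in both forms.

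The same contrast was then read in the 6 AGI24512 libraries, which share no library with the DMSO comparison. RUNX1 and EML2, with the largest deficits, and CD44, with the largest excess, kept their direction and their call there. TMEM181 kept its direction with a much smaller difference, -0.36 (edgeR adjusted p = 0.034), a call lost without any 1 of 4 libraries (adjusted p = 0.0618 to 0.154), and ARHGAP29 was called in the opposite direction. In these libraries edgeR called 48 of 92 introns with the authors' size factors (52.2%), with 29 lower (31.5%) and 19 higher (20.7%), and 51 (55.4%) with size factors from the 92 introns, with 26 lower (28.3%) and 25 higher (27.2%). Of the 18 introns lower in MTAP-null with DMSO, 14 were also lower with AGI24512, which is 77.8% of the DMSO list and 48.3% of the 29 lower with AGI24512. Of the 6 higher with DMSO, 3 were also higher with AGI24512, namely CD44, GTF2I and SNHG5. Over the 92 introns the differences in the DMSO and AGI24512 libraries had a Pearson correlation of 0.61 and a Spearman correlation of 0.50, a description only, since the points share cell lines and size factors and introns are not independent.

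RUNX1 had 16.7, 29.5 and 27.0 scaled counts in AGI24512-treated MTAP-null libraries, against 127, 85.7 and 101 in AGI24512-treated MTAP-WT libraries, a log2 difference of -2.11 (edgeR adjusted p = 1.03e-06). EML2 had 53.8, 43.1 and 50.3 in MTAP-null, against 157, 219 and 169 in MTAP-WT, a difference of -1.88 (edgeR adjusted p = 2.49e-07). CD44 had 1398, 1268 and 1301 in MTAP-null, against 593, 535 and 528 in MTAP-WT, a difference of 1.26 (edgeR adjusted p = 3.98e-08). In all 3 features the forms stayed as far apart as with DMSO or nearly so: the difference between treatments was -0.26, -0.09 and 0.02 on the log2 scale, with edgeR adjusted p-values of 0.736, 0.864 and 0.939. MAT2A had 231, 305 and 312 scaled counts in AGI24512-treated MTAP-null libraries, against 250.4, 170.4 and 175 in AGI24512-treated MTAP-WT libraries, a log2 difference of 0.50 (edgeR adjusted p = 0.0177) that was lost without MTAP-null AGI24512 library 2 (adjusted p = 0.109), MTAP-WT AGI24512 library 2 (0.0556) or library 3 (0.0732).

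**Figure D5:**
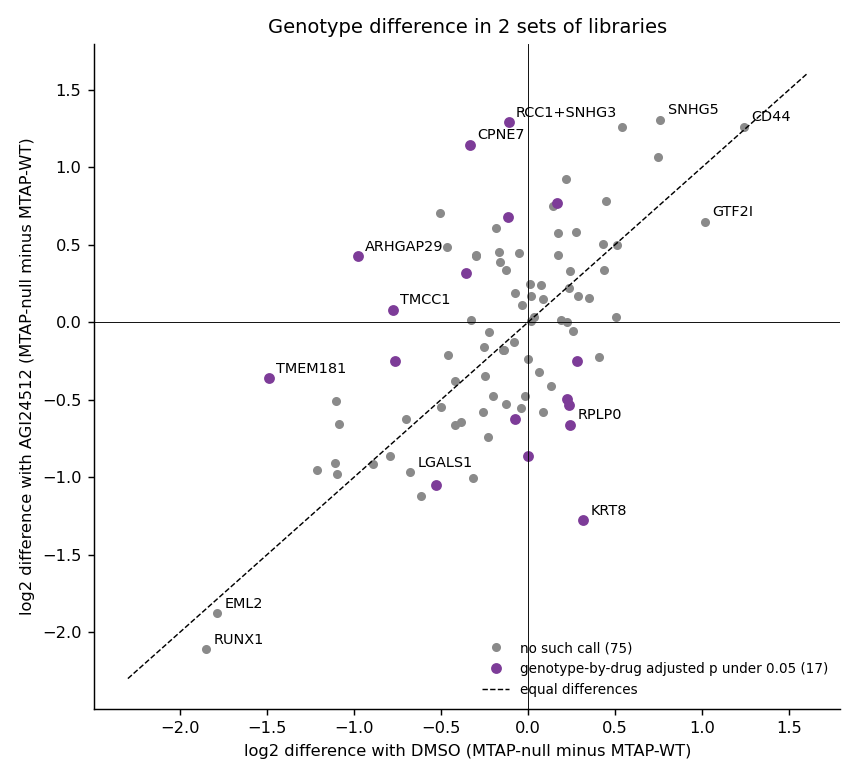
Log2 difference between MTAP-null and MTAP-WT for each of the 92 shared introns in AGI24512 libraries (y axis) against that in DMSO libraries (x axis), with the line of equal differences. RUNX1, EML2 and CD44 lie near the line, and the 17 introns whose difference changed with treatment (purple) lie away from it, KRT8 below and ARHGAP29, RCC1+SNHG3 and CPNE7 above.

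For some introns the untreated difference did not carry over. Whether the difference between the forms changed with treatment was tested as an interaction over all 12 libraries, in which the offset between the tables drops out. The interaction was fitted with the authors' size factors only and was not repeated with those from the 92 introns. edgeR called 17 of 92 introns (18.5%), with 9 positive (9.78%) and 8 negative (8.7%). Of the 18 introns lower in untreated MTAP-null cells, 5 were among them. In ARHGAP29, TMEM181, TMCC1 and ASPH the deficit was smaller or turned with AGI24512. In IAH1 it was larger, with a log2 difference of -1.05 against -0.53 with DMSO. ARHGAP29, lower in MTAP-null with DMSO, had 582, 587 and 724 scaled counts in AGI24512-treated MTAP-null libraries, against 438, 430.5 and 542 in AGI24512-treated MTAP-WT libraries, so the order of the forms was turned. Its interaction was 1.40 on the log2 scale (edgeR adjusted p = 3.45e-05). TMEM181 had 308, 341 and 439 in MTAP-null with AGI24512, against 463, 435 and 501 in MTAP-WT with AGI24512, a smaller gap than with DMSO and an interaction of 1.13 (edgeR adjusted p = 9.85e-05). TMCC1 had 258, 237 and 334 in MTAP-null, against 207, 288 and 292 in MTAP-WT, now overlapping, with an interaction of 0.86 (edgeR adjusted p = 0.00557).

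The ribosomal protein features moved the other way. RPLP0 had 1011, 867 and 821 scaled counts in AGI24512-treated MTAP-null libraries, against 1327, 1579 and 1365 in AGI24512-treated MTAP-WT libraries, with an interaction of -0.90 (edgeR adjusted p = 5.31e-05). RPS14 had 1144, 1032 and 996 in MTAP-null, against 1512, 1676 and 1399.5 in MTAP-WT, with an interaction of -0.77 (edgeR adjusted p = 0.000229). RPL15 had 458, 448 and 464 in MTAP-null, against 544, 565 and 519 in MTAP-WT, with an interaction of -0.53 (edgeR adjusted p = 0.00874). In each of the 3 the MTAP-null libraries were the lower group with AGI24512, without overlap, although the MTAP-null mean was the higher one with DMSO. RPLP0 and RPS14 were called lower in MTAP-null with AGI24512, and RPL15 was not (edgeR adjusted p = 0.0637).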

How the data were processed

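RNA from HCT116 cells was poly-A enriched and sequenced as paired reads of 100 bases, per the labels' protocols. Per the file headers, the authors counted reads per intron or exon feature and ran DEXSeq for AGI24512 against DMSO within each form of the line. The deposited counts are raw read counts per feature and library. The deposited base mean is a signal: the mean of counts divided by the authors' size factors. Over all listed features, the authors' adjusted p-value of that DEXSeq test was at most 0.0499 in MTAP-null and 0.0494 in MTAP-WT. The 92 introns are among these features in both forms. The deposited log2 fold columns and usage scores are fitted within each table by the authors and were not compared between tables. For the aligner, the tools' versions and the build, the sources used here give no name. Gene-level values and 10 tables of splicing events were not used.

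The 3 libraries in each of 4 groups were grouped by title. The 6 size factors of each table were solved from its base means. edgeR 4.0.16 (R 4.3.3) quasi-likelihood tests ran over all 92 introns, with Benjamini-Hochberg adjustment over the 92 and a threshold of 0.05, with no low-count filter. Intervals are 95%. Ratios within a gene used a pseudocount of 0.5. Alternatives were DESeq2 1.42.0, other scalings, a mean of at least 50, each library left out, a replicate block, transcript-named features left out, and 1 fit over 12 libraries. Figures and tables used Python 3.11.15, pandas 2.3.3, numpy 2.4.6, scipy 1.17.1 and matplotlib 3.10.9. The scripts were tested on simulated data.

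Named introns are those with 1 symbol called in the same direction under both scalings, up to 12 per direction by size, plus MAT2A, all shared introns of the gene lists, and the 5 with the most reads. FOCAD, the remaining calls, the within-gene pairs and introns whose difference changed with treatment are named in addition. The members and lists were chosen with earlier results of these data known.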

Additional observations from a re-analysis of the deposited data

Results flagged for a closer look

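These 17 introns had a difference between MTAP-null and MTAP-WT that itself differed between AGI24512 and DMSO, by edgeR's interaction test over 12 libraries with an adjusted p under 0.05. The test used the authors' size factors only. Values are the log2 difference between the forms with AGI24512 minus that with DMSO. The positive ones were CPNE7 at 1.48, ARHGAP29 at 1.40, the feature carrying RCC1 and SNHG3 at 1.40, TMEM181 at 1.13, TMCC1 at 0.86, DMKN at 0.80, the first of 2 features of GALNT18 at 0.68, ESPN at 0.61 and ASPH at 0.51. The negative ones were KRT8 at -1.59, RPLP0 at -0.90, the third feature of TM9SF1 at -0.87, RPS14 at -0.77, RNF187 at -0.72, the second feature of PAX8-AS1 at -0.55, RPL15 at -0.53 and IAH1 at -0.52.

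Of these, 9 were in introns with no call in DMSO with the authors' size factors, and CPNE7, KRT8 and the RCC1 and SNHG3 feature are among them. With size factors from the 92 introns, KRT8 was called higher in MTAP-null with DMSO at 0.40 (edgeR adjusted p = 0.0275) and RNF187 at 0.31 (edgeR adjusted p = 0.0402). The RCC1 and SNHG3 feature had 1663, 1803 and 2095 scaled counts in AGI24512-treated MTAP-null libraries, against 833, 734 and 703 in AGI24512-treated MTAP-WT libraries. CPNE7, which encodes a calcium-dependent membrane-binding protein, had 135, 113 and 127 with AGI24512 in MTAP-null, against 55.6, 62.8 and 51.4 in MTAP-WT. With DMSO its values were 25.3, 18.5 and 38.4 in MTAP-null, against 28.4, 37.4 and 36.5 in MTAP-WT, which overlap. KRT8, a keratin of simple epithelia whose intron lies within the span of KRT18 on the opposite strand, went the other way, with 112, 73.7 and 102 in AGI24512-treated MTAP-null libraries, against 227, 240.2 and 234 in AGI24512-treated MTAP-WT libraries. GALNT18 lost the call when any 1 of 6 libraries was left out, with edgeR adjusted p-values from 0.0563 to 0.0962, and PAX8-AS1 without MTAP-null DMSO library 2 (edgeR adjusted p = 0.0514). The other 15 kept it with any 1 library left out.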

How the results depend on the processing

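With the authors' size factors, the 6 higher calls in DMSO became 3 without the features that carry a transcript name or 2 genes (77 tested), 20 with TMM over the shared introns, 3 with raw counts, and 3 to 8 with 1 library left out. With size factors from the 92 introns, the 17 higher calls became 10 without those features and 7 to 15 with 1 library left out. With 1 library left out, lower calls stayed within 15 to 19 and 16 to 19. DESeq2 called 6 higher and 17 lower, and 13 higher and 17 lower. No called intron among those named turned its direction. Of those not called, TMM gave 0.031 for the RCC1 and SNHG3 feature and 0.020 for DMKN, both below 0 with the authors' factors and those from the 92 introns. With 1 library left out, values with the authors' size factors ran from -0.198 to 0.00015 for the RCC1 and SNHG3 feature, from -0.0067 to 0.058 for the LUC7L2 feature and from -0.331 to 0.075 for TRMT13. With the factors from the 92 introns they ran from -0.120 to 0.074 for the RCC1 and SNHG3 feature, from -0.060 to 0.021 for DMKN and from -0.252 to 0.149 for TRMT13. Between MTAP-null and MTAP-WT DMSO libraries, same-numbered ones deviated together with correlations of 0.03, 0.11 and 0.15, which gave no ground for pairing them. Whether the replicate number marks a batch, or pairs DMSO with AGI24512 libraries of 1 form, was not tested. With the replicate block, edgeR called 4 higher and 15 lower with the authors' size factors, and 12 higher and 16 lower with the other. Over the named introns and all alternatives in DMSO, 600 values kept their direction and side of the threshold, 11 changed sign without a call, 43 lost their call and 2, both MAT2A, gained one. Over all 92 introns, leaving out 1 library ended the call of 7 and gave 8 a call with the authors' size factors, and 16 and 5 with the other. The limits are the unknown offset between the tables, 3 libraries per group, selection of the 92 by response to AGI24512, and low counts in 27 introns.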
